A study of Ovis aries with 2 samples.

Results

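Skeletal muscle devotes much of its mRNA to a small number of genes, and this report describes 69 such genes in the biceps brachii of Dorper (DP) and small-tailed Han (SH) sheep. They were chosen by their measured level: a gene was taken if its RPKM (reads scaled to the length of the gene and to the reads of the library) was at least 1000 in both libraries. Its identifier also had to be an Ensembl cattle (ENSBTAP) or human (ENSP) protein identifier without a suffix for a further copy. The 69 genes are 0.483% of the 14290 genes listed in either library and come from 12034 genes with such identifiers.

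The DP library was made from the biceps brachii of 11-month-old Dorper ewes and the SH library from that of small-tailed Han ewes of the same age, kept under the same conditions. Dorper is raised for meat, and small-tailed Han is a prolific breed. Each breed has 1 library, so the differences between DP and SH below are without replicates and describe these 2 libraries only. The depth was 16656621 unique reads for DP and 20329585 for SH, counted over genes. How many animals went into a library, and whether the mates of a read pair were counted separately, is not given in the sources used here.

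A muscle fibre is filled with sarcomeres, in which myosin of the thick filament pulls on actin of the thin filament when troponin and tropomyosin, on calcium release, free the binding sites. Creatine kinase and the enzymes of glycolysis renew the ATP that this uses, and mitochondria supply it in fibres that work for longer. Slow and fast fibres carry different forms of many of these proteins, so that the mRNA of a muscle also depends on its mixture of fibres. The deposited tables do not pair the identifiers with gene names, and 0 of them matched the available table of sheep genes. Which of the 69 genes encode these proteins is therefore not stated, and the labelled tissue could not be checked against its marker genes. No sequence of a member was at hand.

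The 69 genes span a wide range of levels above the limit. Their median RPKM was 2442 in DP, with quartiles of 1765 and 6477, and 1850 in SH, with quartiles of 1394 and 5178. Over all genes with reads the median was 5.37 (DP) and 5.11 (SH), so that of the set was 455 and 362 times higher. The limit of 1000 made a large factor certain in advance. In DP 11 of the 69 genes had an RPKM of 10000 or more, and in SH 9, while 23 genes (DP) and 36 genes (SH) lay between 1000 and 2000. Between 2000 and 3000 lay 19 genes (DP) and 7 genes (SH). The set therefore has a short list of extreme genes and, mainly in SH, a large group close to the limit. The limit cuts the range from below, so this shape follows in part from the rule.

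The gene ENSP00000355645 headed the order in both libraries. It is 966 bases long and had 822738 reads in DP and 1003502 in SH, which gave an RPKM of 51133 and 51099, respectively. The levels in the libraries were nearly the same, with a log2 ratio of SH over DP of -0.00095 (95% exact binomial interval from -0.0052 to 0.0033). Intervals of ratios given here cover counting error only and say nothing of the spread between animals. This gene stood well above the next one, at 2.08 times the second RPKM in DP and 1.58 times that in SH.

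Behind it came genes that kept their places closely, with exceptions described below. ENSP00000325239, of 513 bases, was second in both libraries, at 24589 RPKM (DP) and 32312 RPKM (SH). ENSP00000221476, of 1146 bases, had 22134 in DP and 24065 in SH. ENSP00000361636, of 315 bases, had 19077 in DP and 23717 in SH. These 3 genes were all somewhat higher in SH, with log2 ratios of 0.39, 0.12 and 0.31.

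ENSP00000378669, of 1251 bases, stood at 18194 RPKM (DP) and 20136 RPKM (SH). ENSP00000384239, of 465 bases, had 24391 in DP, where it was the third of the 69 genes, and 6804 in SH, where it was number 14. It is the one gene among the first 10 by mean RPKM that was much lower in SH. ENSP00000367550, of 912 bases, moved the other way, from an RPKM of 9692 in DP to 16789 in SH. ENSBTAP00000049636, of 456 bases, is the first gene with a cattle identifier in the order by mean RPKM, with 11549 in DP and 14816 in SH.

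**Figure D1:**
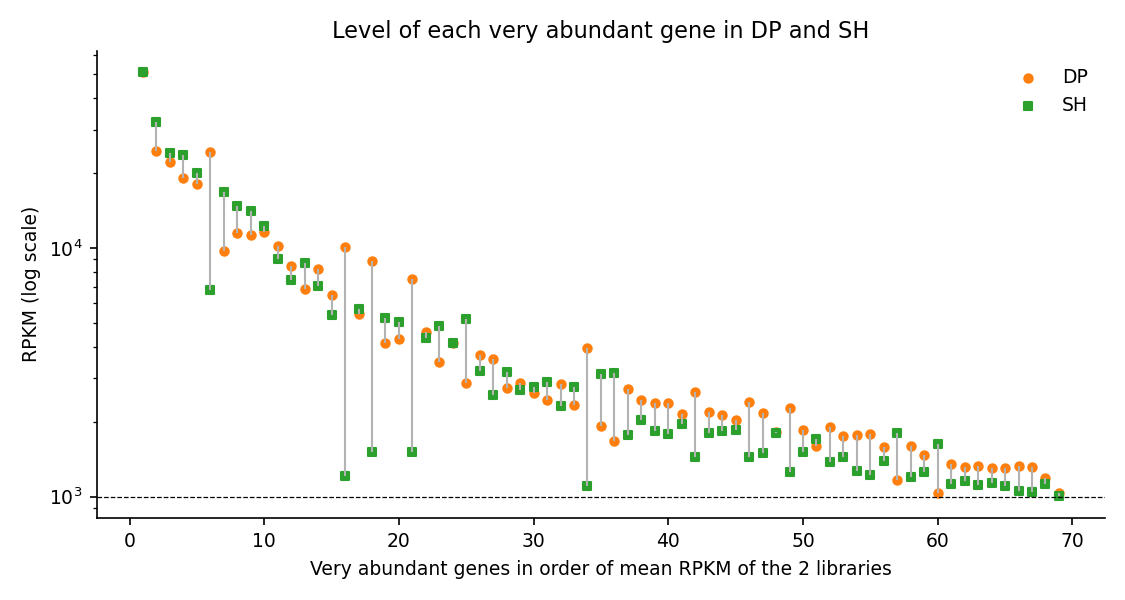
RPKM (log scale) of each of the 69 very abundant genes in DP (circles) and SH (squares), placed in order of the mean RPKM of the 2 libraries and joined by a line per gene. The dashed line is the limit of 1000. The first gene is at the same level in both libraries, and 5 genes have a long line with SH at the lower end.

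At the limit itself, membership turned on small differences. Just inside were ENSBTAP00000042288, at 1031 RPKM (DP) and 1009 RPKM (SH), and ENSP00000368808, with 1032 in DP and 1623 in SH. Just outside were ENSP00000379978, with 1383 in DP and 994 in SH, and ENSP00000379912, with 973 in DP and 1451 in SH. In DP 89 genes with the same kinds of identifiers reached the limit, 20 of them in DP only. In SH it was reached by 75 such genes, 6 of them in SH only. The 2 genes just outside are included. Most of the 20 and the 6 were near misses, since 15 of the 20 had an RPKM of at least 700 in SH and 4 of the 6 had as much in DP. The counts depend on the scaling, as 76 genes reached the limit in both libraries on library totals without the most-read gene. Genes of other identifier kinds that reached 1000 in both libraries, 3 with a copy suffix and 4 gene predictions, are left out by the rule.

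**Figure D2:**
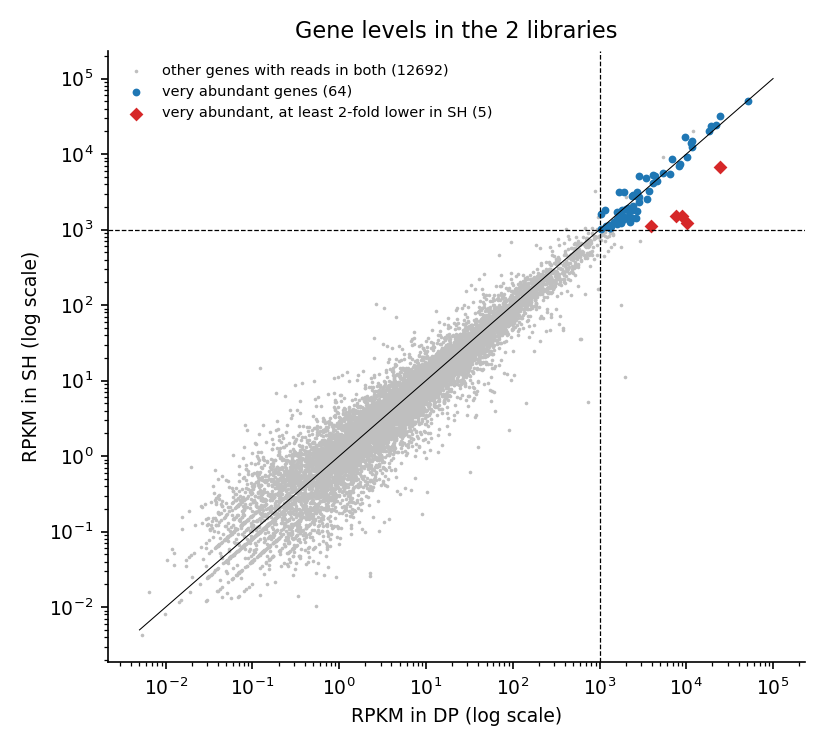
RPKM in DP against RPKM in SH, both on log scales, for all genes with reads in both libraries. The 69 very abundant genes lie above the limit of 1000 in both (dashed lines) and the diagonal marks equal levels; 5 genes (diamonds) were at least 2-fold lower in SH, with an RPKM from 3971 to 24391 in DP and from 1107 to 6804 in SH.

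The 69 genes held a large part of each library. They had 6152618 reads in DP, which is 36.9% of the library (95% exact binomial interval from 36.91% to 36.96%), and 6815093 reads in SH, which is 33.5% (from 33.50% to 33.54%). The lower share in SH came with a higher share of a gene outside the set. ENSBTAP00000012797-D3, the gene with the most reads of all and left out because of its copy suffix, took 6.96% of the DP reads and 11.7% of the SH reads. Together with that gene the set held 43.9% (DP) and 45.2% (SH), so SH had the larger share once it was included. With that gene taken out of the library totals instead, the set held 39.7% (DP) and 38.0% (SH), so DP stayed higher. For the set alone, SH was the higher library at a limit of 2000, with 26.4% (DP) and 27.5% (SH). That limit acts on the values that make the shares and keeps only 1 of the 5 genes at least 2-fold lower in SH, described below. As a share of the summed RPKM, the set held 47.8% (DP) and 48.5% (SH).

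The reads were concentrated within the set as well. The 8 most-read genes held over 50% of the set's reads in either library, and the 20 most-read genes held 75.7% in DP and 77.1% in SH. ENSP00000355645 alone held 4.94% of all reads in DP and 4.94% in SH. At least 1% of the library lay on each of 10 genes in DP and 8 in SH, while 15 genes in DP and 20 in SH held less than 0.1%. The median gene of the set had 0.241% (DP) and 0.233% (SH) of the library.

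A high RPKM and many reads are different things, since the first is divided by length. Of the 10 genes with the most reads, 7 belonged to the set in DP and 7 in SH, and of the 100 genes with the most reads 54 in DP and 51 in SH. All 69 were among the 100 genes with the highest RPKM in either library, which the limit nearly fixes. ENSP00000348444, which is not in the set, shows the contrast, with 922216 reads in DP and 1291049 in SH on a length of 100338 bases and an RPKM of only 552 and 633. At the other end ENSBTAP00000048676, the shortest of the 69 genes at 165 bases, entered with 3645 reads in DP and 3545 in SH. It had the rank 470 by reads among all genes in DP and 553 in SH.

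The 69 genes were short. Gene lengths in the tables were all multiples of 3 and are read here as coding lengths. The median was 810 bases, with quartiles of 456 and 1251, against 1161 bases over all 14290 listed genes. Since the limit is on a length-scaled value, an RPKM of 1000 stood for 16.7 reads per base in DP and 20.3 in SH, and a short gene needed fewer reads to reach it. As a second yardstick, 352 other genes had at least as many reads as the least-read gene of the set in both libraries. Their median length was 1592 bases, and 7.95% of them were up to 500 bases long against 34.8% of the set. Length entered the rule, so these are descriptions.

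**Figure D3:**
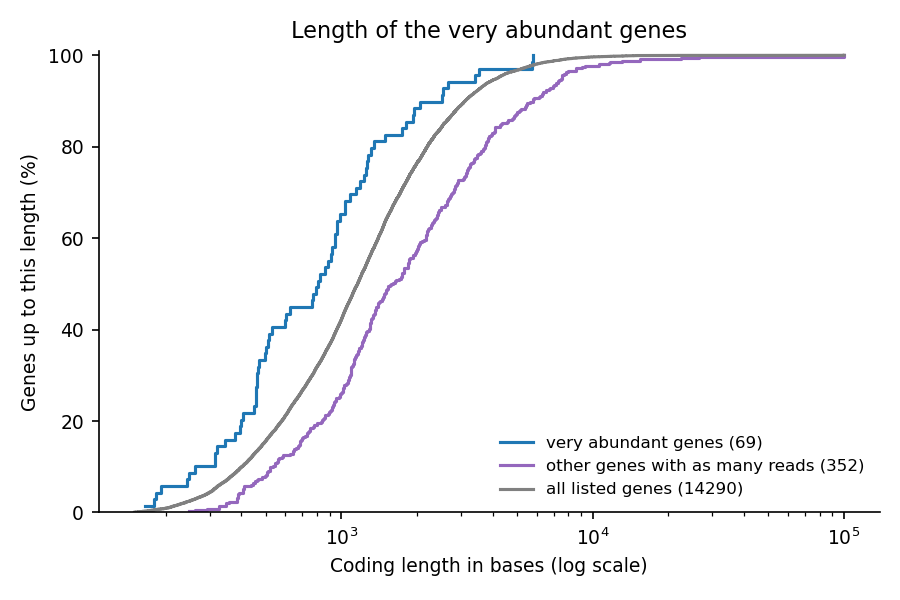
Percentage of genes up to each coding length (log scale), for the 69 very abundant genes, the 352 other genes with as many reads, and all 14290 listed genes. The line of the very abundant genes lies left of the other lines over most of the range, with medians of 810, 1592 and 1161 bases.

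By length the set falls into 24 genes of up to 500 bases, 21 of more than 500 and up to 1000 bases and 24 longer ones. These were 1.67%, 0.686% and 0.319% of the listed genes of those lengths with the same kinds of identifiers. The median RPKM differed little between the length groups in DP, at 2537, 2613 and 2415. In SH it was 1808, 3121 and 1895, highest in the middle group. Reads followed length, with a median of 15881, 31732 and 79891 reads in DP and 14812, 42463 and 78120 in SH. Across the 69 genes the Spearman correlation of length with RPKM was -0.034 in DP and -0.053 in SH, and that of length with reads 0.62 in DP and 0.60 in SH. The limit asks for reads in proportion to length, so the relation of length and reads is partly fixed by the rule. The values are descriptions over genes that share 2 libraries.

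The longest genes of the set had many reads, as the limit demands of a long gene. ENSP00000245503, of 5799 bases, had 360047 reads in DP and 379237 in SH and an RPKM of 3728 and 3217. ENSP00000386041, of 5718 bases, had 378206 reads in DP and 128694 in SH and an RPKM of 3971 and 1107. The first of them was close in the libraries and the second was much lower in SH. The second shortest gene, ENSP00000248553 with 180 bases, reached 6477 RPKM (DP) and 5383 RPKM (SH) with 19418 and 19699 reads.

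Genes with human identifiers made up more of the set than those with cattle identifiers. There were 39 with human and 30 with cattle identifiers, which is 56.5% and 43.5% of the set, against 48.8% and 51.2% of the 12034 listed genes. The human group held most of the reads, with 29.8% of the library in DP and 26.2% in SH, whereas the cattle group held 7.13% and 7.29%. Their median RPKM was 3728 and 2564 in DP and SH for human identifiers and 2030 and 1736 for cattle identifiers. The median log2 ratio was similar in the groups, at -0.17 and -0.20.

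The deposited description defines coverage as the bases of unique reads on a gene over the bases of the gene. The values level off near 100%, so they are read here as the percentage of bases with unique reads, although a few genes in DP lie slightly above 100%. For the 69 genes the coverage was near that ceiling. The median was 99.68% in DP and 99.71% in SH, against 89.91% and 91.17% over all genes with reads and 99.61% and 99.62% over the 352 other genes with as many reads. A coverage of at least 99% was found in 50 genes in DP and 54 in SH (72.5% and 78.3% of the set). Among the 352 other genes the shares were 65.1% and 65.6%. The genes of the set had at least 17.2 reads per base in DP and 20.5 in SH.

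Converted to bases, the coverage often ended 1 base short of the gene. In 31 of the 69 genes the value rounded to 1 uncovered base in both libraries, as for ENSP00000361636 with 315 bases and ENSP00000245503 with 5799. No gene of the set was covered to the last base in SH and 1 was in DP. The rounding of the deposited percentage alone leaves at most 0.29 bases of doubt. ENSBTAP00000012797-D3, outside the set, is listed at 100.02% of its 5808 bases in DP, so each number of uncovered bases is also in doubt by about 1 base. Whether such a base was truly without reads was not tested. In the set 47.8% of genes in DP and 56.5% in SH had it, against 21.3% and 21.3% of the 352 other genes, which were longer.

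Some very abundant genes were covered less fully. The coverage was under 95% in 10 genes in DP and 10 in SH, of which 9 were the same genes. This is 14.5% of the set in either library, against 17.0% (DP) and 17.6% (SH) of the 352 other genes with as many reads, so low coverage was not more common in the set. The lowest was that of ENSP00000377878, of 603 bases, with 74.96% in DP and 78.11% in SH, where 151 and 132 bases had no unique reads. ENSP00000371103, of 315 bases, had 80.63% and 81.59%, with 61 and 58 bases uncovered. The RPKM of these genes was 2273 and 1821 in DP and 1253 and 1811 in SH, so many reads lay on them all the same.

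The most abundant gene was among them. ENSP00000355645 had 68 bases without unique reads in DP and 68 in SH, at 852 and 1039 reads per base. ENSP00000339051, of 456 bases, had 31 uncovered bases in DP and 31 in SH. Over the whole set, 43 of 69 genes had the same number of uncovered bases in the libraries, but 31 of these are the genes with 1 base in both. Of the 16 genes with at least 10 uncovered bases in both, 8 differed by at most 3 bases, among them 4 with the same number. Others differed more, as ENSP00000422007 with 77 bases in DP and 146 in SH and ENSP00000386041 with 107 and 50. The largest difference in coverage between the libraries was 3.15 percentage points. The tables count reads with a single position only and do not say which bases were uncovered. The part of other copies of these genes in the uncovered bases was not tested. The 9 genes under 95% in both libraries had log2 ratios from -0.86 to 0.62, and 0 of them were among the genes that were 2-fold lower in SH.

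**Figure D4:**
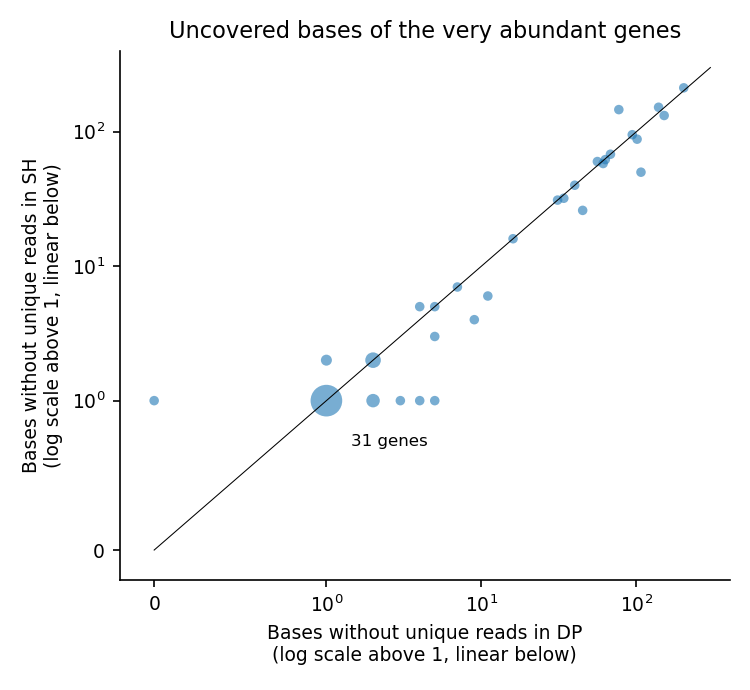
Number of bases without unique reads in DP against SH for the 69 very abundant genes, on scales that are linear up to 1 and logarithmic above, with larger points where genes coincide. The largest point holds the 31 genes with 1 uncovered base in both libraries, and most other genes lie near the diagonal of equal numbers.

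The order of the 69 genes by RPKM was similar in the libraries. The Spearman correlation of the RPKM in DP and SH across the genes was 0.80, as a description of 2 libraries, and the limit on both values shortens the range it covers. Among the first 10 genes of either library 9 were shared, and among the first 20 there were 16 shared. In 41 genes the rank changed by at most 5 places, and in 16 genes by more than 10. Leaving out the 5 genes that were at least 2-fold lower in SH gave 0.91, a higher value that follows from removing the genes that disagree most.

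The largest changes of place were downward in SH. ENSP00000408907 went from rank 11 in DP to 58 in SH, ENSP00000386041 from 24 to 65, ENSP00000228841 from 13 to 45 and ENSP00000232975 from 16 to 46. The largest upward change was that of ENSBTAP00000012735, from rank 54 to 25. Ranks lie close together near the limit, where a small difference in RPKM moves a gene by many places.

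For most of the 69 genes the libraries were within a modest factor of each other. The log2 ratio of SH over DP had a median of -0.20, with quartiles of -0.33 and 0.15, and 52 genes lay within 0.5 of equal levels. The direction of the median turned with the limit, as it was 0.077 for the 31 genes left at a limit of 2000. Under 4 other scalings of the libraries it lay between -0.13 and -0.12. Lower in SH were 46 genes and higher 23, which is 33.3% higher, against 32.1% of the 352 other genes with as many reads. The median of those 352 genes was -0.18, and that of all 12761 genes with reads in both libraries was -0.08. Counting error was small beside these ratios, with intervals that reached at most 0.067 to either side. Only 3 of the 69 intervals, that of ENSP00000355645 included, held 0. Which intervals hold 0 depends on the scaling, since the 4 other scalings raise every log2 ratio by 0.069 to 0.077.

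An absolute log2 ratio of at least 1, a criterion that the study used for the FPKM of new transcripts and that is applied here to the RPKM of annotated genes, was met by 5 of the 69 genes, and all 5 were lower in SH. They are 7.25% of the set. Of the 12761 genes with reads in both libraries 11.2% were at least 2-fold lower and 8.82% at least 2-fold higher in SH. Of the 421 genes with as many reads as the least-read gene of the set, the 69 included, 4.04% were lower and 2.61% higher. The limit of 1000 in both libraries removes genes that differ strongly near it, and the ratio is made of the values that chose the genes, so nothing is read from these shares. Of the 95 genes at the limit in either library, 11 were at least 2-fold lower and 2 at least 2-fold higher in SH.

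The 5 genes stood apart from the rest of the set, and they are named because they are few. ENSP00000408907, of 1926 bases, had 323231 reads in DP and 47442 in SH and an RPKM of 10076 and 1212, which is 8.32-fold lower in SH (log2 ratio -3.06, 95% exact binomial interval from -3.07 to -3.04). ENSP00000228841, of 498 bases, had 73441 and 15369 reads and an RPKM of 8854 and 1518, 5.83-fold lower (log2 ratio -2.54, from -2.57 to -2.52). ENSP00000232975, of 462 bases, had 57955 and 14254 reads and an RPKM of 7531 and 1518, 4.96-fold lower (log2 ratio -2.31, from -2.34 to -2.28). These 3 genes were among the first 16 in DP and between rank 45 and 58 in SH.

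The other two were lower by nearly the same factor. ENSP00000386041, already described as the second longest gene, was 3.59-fold lower in SH (log2 ratio -1.84, from -1.85 to -1.83). ENSP00000384239, the third gene in DP, had 188913 and 64319 reads and was 3.58-fold lower (log2 ratio -1.84, from -1.85 to -1.83). The lengths of the 5 genes ran from 462 to 5718 bases and their coverage was at least 98.13% in DP and 99.13% in SH, so in SH nearly all of their bases were still read. The next gene above them, ENSBTAP00000014801, had a log2 ratio of -0.87, which leaves a gap of 0.98 in which no gene of the set lies. The RPKM limit acts on the same values and leaves out genes that fall below it in SH, so it can help to make this gap. Among the 95 genes at the limit in either library, 6 that were at least 2-fold lower in SH missed the limit there. Whether the gap would remain without the limit was not tested.

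**Figure D5:**
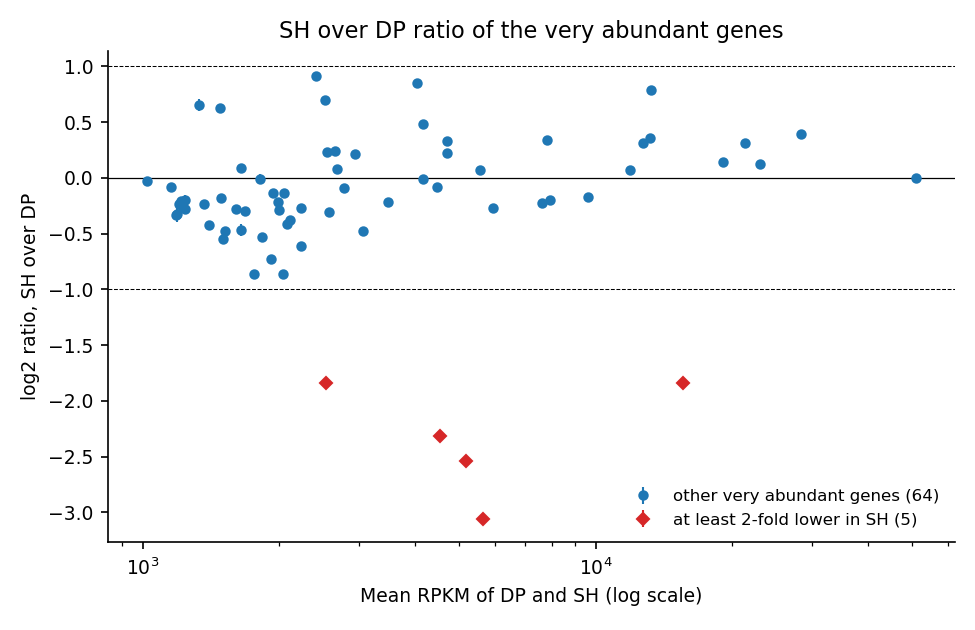
Log2 ratio of SH over DP against the mean RPKM (log scale) for the 69 very abundant genes, with 95% exact binomial intervals that are mostly smaller than the points. The dashed lines mark 2-fold differences; 5 genes (diamonds) lie between -3.06 and -1.84, and the other 64 lie between -0.87 and 0.92.

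At the limit of 1000 and counted in reads, the lower share of the set in SH lay in these 5 genes, while at a limit of 2000 and by summed RPKM the share was higher in SH, as given above. They took 6.13% (DP) and 1.33% (SH) of the reads, whereas the other 64 genes held 30.8% in DP and 32.2% in SH. In points of the library, the share of the 5 genes decreased by 4.81 and that of the 64 genes was higher by 1.39. ENSBTAP00000012797-D3, outside the set, was higher by 4.72 points in SH. Shares of a library add up to a fixed total, so these differences are not independent of each other. The 5 genes were also set apart by their ratio, so their lower share in SH was fixed by that choice, which favours SH in the 64 others.

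No gene of the set was 2-fold higher in SH, and the highest ratios stayed just short of it. ENSBTAP00000012735, of 825 bases, had 22966 reads in DP and 52957 in SH and an RPKM of 1671 and 3157 (log2 ratio 0.92, 95% exact binomial interval from 0.90 to 0.94). ENSP00000384656, of 450 bases, had 21487 and 47367 reads and an RPKM of 2867 and 5178 (log2 ratio 0.85, from 0.83 to 0.88). The coverage of the first of these was 94.55% in DP and 96.85% in SH, and that of the second 96.44% in both. At a criterion of 1.5-fold, 9 genes of the set were lower in SH (13.0%) and 6 were higher (8.70%). Of those 421 genes with as many reads, 15.9% were lower and 7.36% higher by that criterion.

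The ratio varied with the level inside the set. The 10 genes with a mean RPKM of at least 10000 had a median log2 ratio of 0.23, and 8 of them were higher in SH. The median was -0.08 for the 15 genes from 4000 to 10000, of which 6 were higher, and -0.24 for the 18 genes from 2000 to 4000, of which 6 were higher. It was -0.24 for the 26 genes from 1000 to 2000, of which 3 were higher. The Spearman correlation of the mean RPKM with the log2 ratio was 0.31 across the 69 genes and 0.47 without the 5 genes that were 2-fold lower, which were set aside by their ratio. Outside the set the median was -0.23 for 92 genes with a mean RPKM from 500 to 1000, -0.14 for 581 genes from 100 to 500 and -0.08 for 3826 genes from 10 to 100.

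The level groups also differed in how their shares compared. The 10 highest genes took 15.6% (DP) and 16.7% (SH) of the reads. The other groups held less in SH, with 8.45% and 6.51% from 4000 to 10000, 9.42% and 7.30% from 2000 to 4000, and 3.50% and 3.05% from 1000 to 2000. Without ENSP00000408907, ENSP00000228841 and ENSP00000232975, the other 12 genes from 4000 to 10000 held more in SH, with 5.73% and 6.13%. Without ENSP00000386041, the other 17 genes from 2000 to 4000 held 7.15% and 6.67%. The genes left out were chosen by their low ratio, so leaving them out favours SH by construction. Of the 10 highest genes ENSP00000384239 was lower in SH by the 2-fold criterion, ENSP00000355645 was level and the remaining 8 were higher. The limit and the ratio use the same 2 values per gene, so the relation of ratio and level is a description and was not tested.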

How the data were processed

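Biceps brachii mRNA was sequenced as 1 library per breed. Per the labels, libraries were made from total RNA with the Illumina TruSeq RNA kit. The authors removed reads with adaptors, unknown bases or low quality, and deposited for each gene the count of reads with a single position on genes, without normalization. The deposited RPKM is the authors' count divided by gene length and by the column total; recomputed, it differed by at most 7.03e-08 in relative terms. The deposited coverage score is a percentage of the gene length, in which a few DP genes exceed 100. Aligner, build and annotation of these tables are not given in the sources used here.

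Tables were joined by identifier, and gene lengths differed for 0 genes. The 69 genes, the comparisons and the lists were chosen with earlier results of these data known. The rule for genes named by identifier took the 8 highest mean RPKM, the 3 with most reads, the 2 highest and 2 lowest ratios, the 2 longest, the 2 shortest, the 2 lowest coverages, the largest rank change each way, and 2 genes on each side of the limit. The other genes named were chosen after their values were seen. Marker and pathway lists by symbol were not run, since 0 identifiers matched ARS-UI_Ramb_v3.0 gene names. Breeds were not tested against each other, as each has 1 library. Intervals are exact (Clopper-Pearson) 95% binomial intervals, and reads without molecular identifiers are not independent molecules. The calculations were tested on simulated data. Alternatives changed the limit, identifiers, scaling, pseudocount and criterion. The software was Python 3.11.15 with scipy 1.17.1, pandas 2.3.3, matplotlib 3.10.9 and numpy 2.4.6, and R 4.3.3 with edgeR 4.0.16 and DESeq2 1.42.0 (scaling factors only).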

Additional observations from a re-analysis of the deposited data

How the results depend on the processing

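Each result comes from 1 library per breed, and its spread between animals is not known. No paired analysis was possible because each breed has 1 library, and leaving out a library leaves no comparison.

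The number of very abundant genes was 142 at an RPKM limit of 500 and 31 at 2000. It was 72 with suffixed identifiers added, 73 with gene predictions added, 76 on library totals without the most-read gene and 95 with the limit in either library. The share of reads in DP and SH was 49.3% and 46.3% at a limit of 500, 26.4% and 27.5% at 2000, 44.0% and 45.3% with suffixed identifiers, 39.1% and 36.8% with predictions, 39.7% and 38.0% of reads without the most-read gene, and 47.8% and 48.5% of the summed RPKM. SH thus had the larger share at a limit of 2000, with suffixed identifiers and by summed RPKM, and DP otherwise.

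Under the limits of 500 and 2000, suffixed identifiers and predictions in turn, the median length was 750, 864, 802.5 and 825 bases. The median coverage in DP was 99.555%, 99.75%, 99.67% and 99.65%, and in SH 99.62%, 99.75%, 99.685% and 99.69%. The Spearman correlation of RPKM was 0.88, 0.93, 0.82 and 0.81, and 0.91 when ordered by reads.

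The median log2 ratio, -0.20, was 0.077 at a limit of 2000, -0.19 at 500, -0.20 with suffixed identifiers and -0.18 with predictions. It was -0.12 centred on the median of genes with an RPKM of at least 1, -0.12 on totals without the most-read gene, -0.13 with edgeR TMM factors and -0.12 with median-of-ratios factors. Under each of these 4 scalings 27 genes were higher and 42 lower in SH. The number of genes at least 2-fold different was 10 at a limit of 500, with 9 lower and 1 higher, and 1 at 2000, and 15 at a criterion of 1.5-fold. It was 5, all lower, under every scaling, the pseudocount of 1, suffixed identifiers and predictions.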
